A study of Homo sapiens with 6 samples.

Results

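The lysosomal proteases described here are 10 genes, the cathepsins CTSA, CTSB, CTSC, CTSD, CTSF, CTSL and CTSZ together with TPP1, LGMN and SCPEP1. They were chosen by gene symbol as cathepsins and other lysosomal peptidases, and each symbol matched 1 of the 31762 genes counted by RNA sequencing. The cells were H460, a line of human large cell lung carcinoma, labelled as wild type. In 3 libraries the cells were controls, and in 3 libraries they had been exposed to 20 µM fluoxetine, a selective serotonin reuptake inhibitor, for 24 h. The labels name neither a vehicle for the controls nor separate cultures behind the libraries, so the p-values measure the spread between these libraries, which may be technical.

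Lysosomal proteases break down proteins that reach the lysosome through endocytosis and autophagy. They are made in the endoplasmic reticulum as inactive precursors, most are tagged with mannose 6-phosphate in the Golgi apparatus, and receptors for that tag carry them to the acidic compartments where they are processed to active enzymes. Tumour cells are known to secrete a part of them. CTSB, CTSC, CTSF, CTSL and CTSZ are cysteine proteases of the papain family, LGMN is the asparaginyl endopeptidase legumain, CTSD is an aspartic protease, CTSA and SCPEP1 are serine carboxypeptidases, and TPP1 is a serine protease that removes tripeptides. In the annotation deposited with the counts, 9 of the 10 genes belong to the KEGG lysosome pathway, all but SCPEP1, and 10 of 10 carry a cellular component term for extracellular exosomes.

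Total counts were 19343565 to 27823667 per control library and 16157507 to 17113538 per fluoxetine library, so the treated libraries were all shallower than the controls. The lowest count of any member in any library was 179, far above the 3 counts that were taken as the limit of detection. Such limits cover counting error only. Control replicate 3 stood apart from the other controls. Its chi-square over genes, divided by the degrees of freedom, was 21.7 and 12.4 against control replicates 1 and 2, beside 5.63 between those, 3.49 to 10.7 within the fluoxetine group and 20.7 to 46.4 between the groups. This measure grows with depth, and that library was the deepest. The keratin genes of epithelial cells KRT8, KRT18 and KRT19 were abundant, whereas the epithelial genes EPCAM and CDH1 had at most 11 counts and 1 count in a library. KRT18 was lower with fluoxetine (log2 fold change -0.72, standard error 0.10, edgeR quasi-likelihood adjusted p = 0.00162). The summed level of 6 leukocyte and macrophage markers was 2.30 to 2.71 CPM (counts scaled to a common library size, with TMM normalization) in control libraries and 2.49 to 3.27 CPM after fluoxetine, and PTPRC, the pan-leukocyte marker, had at most 2 counts in a library. The 4 fibroblast markers summed to 26.7 to 28.3 CPM and to 25.0 to 25.4 CPM, with COL3A1 lower (log2 fold change -0.53) and LUM higher (0.88), and the 2 endothelial markers in the table to at most 0.182 CPM. The part of the markers that moved in the protease results was not tested.

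At an adjusted p-value under 0.05, 4 of the 10 proteases were upregulated by fluoxetine, namely TPP1, CTSA, CTSB and SCPEP1, and 1, CTSC, was downregulated. Among all 15646 tested genes, 7.76% were upregulated and 5.32% downregulated by the same rule, 13.1% in either direction. TPP1 was the only member that also changed at least 2-fold, as did 1.25% of all tested genes upward. The median log2 fold change of the 10 members was 0.29, beside 0.03 for all tested genes. The members were chosen with results of these data known, so the median and the counts are descriptions without a test. The groups did not overlap for 8 members that were higher and 1 that was lower. Among all tested genes the groups were apart in 31.9%, 17.5% higher and 14.4% lower. Without control replicate 3, the library that stood apart, 4 members were upregulated and 1 downregulated with a median of 0.22. SCPEP1 was then no longer called (adjusted p = 0.0642 from edgeR), but CTSD was (adjusted p = 0.0455). That fit called more of all tested genes, 3633 of 15795 in either direction, beside 2047 of 15646 with all 6 libraries. At an unadjusted p-value under 0.05, 8 members were higher and 1 was lower, but the share of all tested genes at that cut was not counted. LGMN, with the highest edgeR p-value among these members (0.0385), ranked only 4023 among the 15646 tested genes. At least 4023 of all tested genes thus passed that cut, in either direction. In bulk RNA, a change in the number of cells that express a gene and a change in RNA per cell cannot be told apart.

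**Figure D1:**
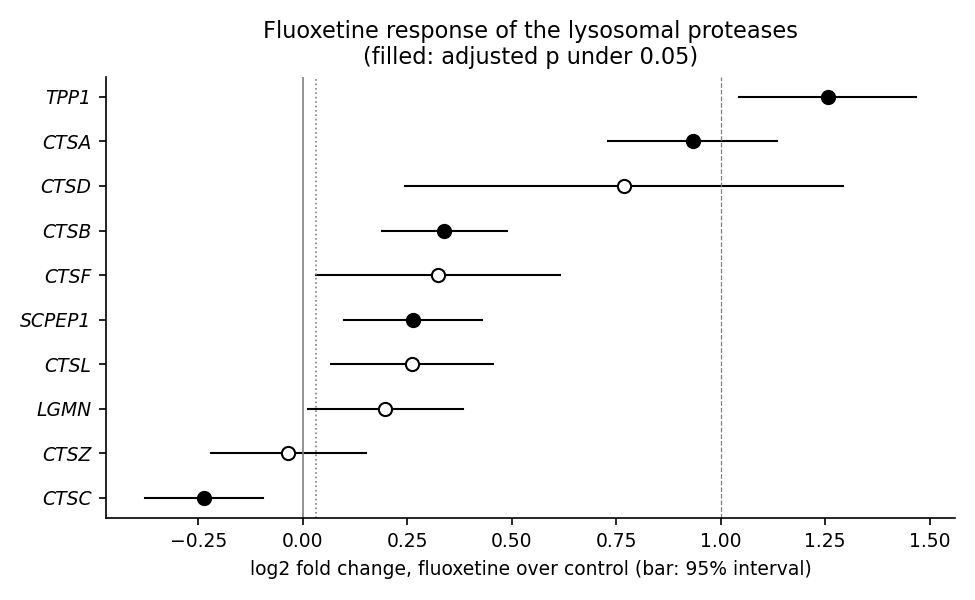
Log2 fold change of fluoxetine over control for each of the 10 lysosomal proteases (x axis), with the 95% interval as a bar. Filled points had an adjusted p-value under 0.05, the dotted line marks the median of all tested genes at 0.03 and the dashed line a 2-fold rise. TPP1 and CTSA lie farthest to the right at 1.26 and 0.93, and CTSC is the member farthest to the left at -0.24.

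The sequences before the start sites of the members are shown because the members did not move alike and several of them carry the same letters there. RefSeq (build GRCh38.p14) gave a promoter for 8 members and none was matched for CTSB and LGMN. The letters searched were CACGTG, the E-box read alike on both strands, which many basic helix-loop-helix factors including TFEB are known to bind, its extensions to TCACGTG on either strand and to a palindrome of 10 letters with GT before and AC after CACGTG, and the variant CATGTG with its reverse complement CACATG. These forms overlap, since both extensions hold CACGTG. The 100 bases just before the start site follow, 5′ to 3′ on the gene's own strand, with CACGTG in capitals, and in TPP1 alone also CATGTG and CACATG.
CTSA: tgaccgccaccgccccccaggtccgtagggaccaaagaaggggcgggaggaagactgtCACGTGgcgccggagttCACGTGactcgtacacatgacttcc
SCPEP1: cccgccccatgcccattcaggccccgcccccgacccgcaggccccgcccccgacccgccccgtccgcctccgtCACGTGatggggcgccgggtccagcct
CTSD: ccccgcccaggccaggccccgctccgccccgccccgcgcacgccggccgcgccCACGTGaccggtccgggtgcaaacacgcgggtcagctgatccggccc
CTSF: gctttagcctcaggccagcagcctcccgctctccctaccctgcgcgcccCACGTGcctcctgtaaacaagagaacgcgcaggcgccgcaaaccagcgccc
TPP1: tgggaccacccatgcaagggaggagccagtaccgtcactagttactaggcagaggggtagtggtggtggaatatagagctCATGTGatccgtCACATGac
CTSL: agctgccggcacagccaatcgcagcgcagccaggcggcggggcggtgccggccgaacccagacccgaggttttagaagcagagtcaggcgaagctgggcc
CTSZ: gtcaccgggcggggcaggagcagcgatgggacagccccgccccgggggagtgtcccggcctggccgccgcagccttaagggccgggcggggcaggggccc
CTSC: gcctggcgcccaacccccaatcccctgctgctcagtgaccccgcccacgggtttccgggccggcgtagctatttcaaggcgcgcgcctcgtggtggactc

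These stretches lie at chr20:45891235-45891334 (plus strand), chr17:56978031-56978130 (plus strand), chr11:1763928-1764027 (minus strand) and chr11:66568607-66568706 (minus strand). The others lie at chr11:6619423-6619522 (minus strand), chr9:87726019-87726118 (plus strand), chr20:59007255-59007354 (minus strand) and chr11:88337737-88337836 (minus strand). The deposited coordinates of 9 members equal those of GENCODE release 29, which is on GRCh38, and all but TPP1 are among them. The RefSeq start site lies 1191 bases inside the deposited gene for CTSA, 646 bases for CTSD and 600 bases for CTSL, and 235 bases or less from the outer end of the other genes with a promoter.

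In the 300 bases around the start site (250 before and 50 after it), CACGTG was found in 4 of the 8 members, CTSA, SCPEP1, CTSD and CTSF, in 7.26% of all 35116 RefSeq promoters and in 9.31% of the 15007 promoters of tested genes. CTSA held it at -42 and -25, counted from the start site to the first letter, CTSD at -47, SCPEP1 at -27 and CTSF at -123 and -51. In each of these 4 promoters at least 1 copy was extended to TCACGTG on either strand, which 3.71% of all promoters and 5.32% of those of tested genes held. The palindrome of 10 letters was in 0 of the 8 members, in 0.353% of all promoters and in 0.646% of those of tested genes. TPP1 held no CACGTG, but CATGTG at -20 and its reverse complement at -8, and CTSA held 1 further copy of that variant at -12, whereas 11.1% of all promoters and 7.45% of those of tested genes held it. CTSL, CTSZ and CTSC held neither. The log2 fold changes were 0.93, 0.77, 0.32 and 0.26 for CTSA, CTSD, CTSF and SCPEP1, with those of CTSD and CTSF short of the adjusted threshold. The 4 members without CACGTG were TPP1, which rose most of the 10 at 1.26, and CTSL, CTSZ and CTSC at 0.26, -0.03 and -0.24, with TPP1 and CTSC past the threshold. Of the related lists described further on, 28 genes were tested and 12 called. A promoter was matched for 8 of the called genes, not for CLN8, PSAP, CTSO and CSTB, and for 10 genes not called. Of these, 3 of the 8 called genes and 3 of the 10 not called held CACGTG. NEU1 with a log2 fold change of 2.07 held it, and GRN at 1.14 did not. Over all tested genes, CACGTG was in 14.4% of the promoters of upregulated genes and 11.4% of those of downregulated genes. In the same order, TCACGTG was in 11.7% and 3.26%, the palindrome of 10 letters in 2.17% and 0.543%, and CATGTG in 10.8% and 6.19%. These percentages count promoters, and a gene can have more than 1, with 1476 promoters beside 1214 upregulated genes. A related gene was instead counted once if any of its promoters held CACGTG, so the counts and percentages are in unlike units. Letters in a window are no binding site, and no test was made of them.

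**Figure D2:**
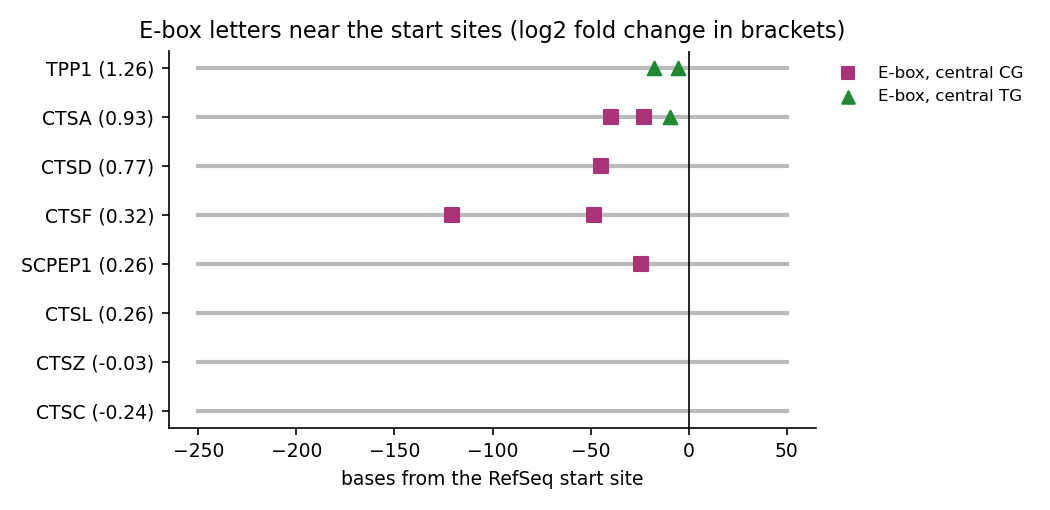
Positions of both E-box forms (squares and triangles) within the 300 bases around the RefSeq start site of 8 lysosomal proteases, in bases from the start site. The log2 fold change is in brackets after each gene name, and CTSL, CTSZ and CTSC at the bottom hold neither form.

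Among the serine proteases, TPP1 (ENSG00000166340, chromosome 11, 6612763 to 6619461, minus strand) showed the largest rise of the 10 members. TPP1 takes tripeptides off the amino end of proteins, and its loss is known to cause a childhood neuronal ceroid lipofuscinosis. Its level was 18.3, 18.5 and 21.0 CPM in control replicates 1, 2 and 3, and 47.6, 44.8 and 45.9 CPM in fluoxetine replicates 1, 2 and 3. Every fluoxetine library was thus far above every control library. The mean went from 19.3 ± 1.54 CPM in control cells to 46.1 ± 1.38 CPM (SD of 3 libraries each), a 2.39-fold rise (log2 fold change 1.26, standard error 0.10, adjusted p = 2.42e-05 from edgeR). Of the 3560 bases of its principal transcript, 665 are shared with another gene model on the same strand in GENCODE release 29, but that model is not among the genes of the deposited table. If all TPP1 counts came from the 2895 bases that are not shared, its level would be 12.6 TPM in control cells and 31.2 TPM after fluoxetine. TPM are counts per length, scaled to the same sum in every library.

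CTSA (ENSG00000064601, chromosome 20, 45890144 to 45898820, plus strand) rose nearly as clearly. CTSA encodes the protective protein, a carboxypeptidase that also holds the sialidase NEU1 and the β-galactosidase GLB1 in a complex. Its level was 104, 89.8 and 82.4 CPM in control replicates 1, 2 and 3, and 169, 184 and 174 CPM in fluoxetine replicates 1, 2 and 3, without overlap of the groups. The rise was 1.91-fold, just under 2-fold (log2 fold change 0.93, standard error 0.09, adjusted p = 1.58e-04 from edgeR). TPP1 and CTSA were the members that passed the adjusted threshold in each of 14 alternative analyses. The principal transcript of CTSA overlaps genes on the other strand over 692 of 2149 bases. The most abundant of them, PLTP, which encodes phospholipid transfer protein, had a mean of 574 counts per library, and its difference was small (log2 fold change 0.02, adjusted p = 0.919 from edgeR).

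SCPEP1 (ENSG00000121064, chromosome 17, 56978105 to 57006768, plus strand), a carboxypeptidase of the same family as CTSA, moved far less. Its level was 66.2, 63.7 and 64.9 CPM in control replicates 1, 2 and 3, and 78.9, 80.8 and 74.1 CPM in fluoxetine replicates 1, 2 and 3. The groups were apart, and the rise was 20.0% (log2 fold change 0.26, standard error 0.07, adjusted p = 0.0422 from edgeR). The call for SCPEP1 was lost whichever library was left out, with adjusted p-values from edgeR of 0.0642 to 0.240, and also with DESeq2 (adjusted p = 0.0932), with RLE normalization (0.0648) and without a filter on low counts (0.169).

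CTSD (ENSG00000117984, chromosome 11, 1752752 to 1764573, minus strand), the aspartic protease, had the third largest fold change but did not pass the adjusted threshold. Its level was 54.3, 49.1 and 27.4 CPM in control replicates 1, 2 and 3, and 77.2, 90.3 and 54.8 CPM in fluoxetine replicates 1, 2 and 3. The lowest fluoxetine library thus lay only just above the highest control library, and replicate 3 was the lowest library of either group. CTSD varied more between replicates than any other member, with a coefficient of variation of 32.7% over the control libraries and 24.2% over the fluoxetine libraries. For comparison, the median of the 11239 tested genes with a mean of at least 100 counts was 8.13% and 7.76%. The log2 fold change was 0.77 (standard error 0.24, 95% interval 0.25 to 1.29, adjusted p = 0.0571 from edgeR, unadjusted p = 0.00814). It became 0.48 on leaving out control replicate 3 (edgeR adjusted p = 0.0455), 0.93 on leaving out control replicate 1 (adjusted p = 0.0450) and 0.93 on leaving out fluoxetine replicate 3 (adjusted p = 0.0240), while without any of the other 3 libraries the adjusted p-value lay between 0.132 and 0.204.

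The gene model of CTSD is also the most entangled of the 10. AC068580.4, a protein-coding gene on the same strand, covers 1304 of the 2123 bases of the principal transcript of CTSD in GENCODE release 29, and was itself counted 3.83 times per library on average. How reads on shared bases were assigned is not given in the sources used here, so the level of CTSD is uncertain.

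The cysteine proteases of the papain family did not move as a block. CTSB (ENSG00000164733, chromosome 8, 11842524 to 11869448, minus strand), an endopeptidase that also trims dipeptides from carboxyl ends, was at 110, 111 and 109 CPM in control replicates 1, 2 and 3 and at 134, 143 and 141 CPM in fluoxetine replicates 1, 2 and 3. The control libraries lay close together and every fluoxetine library was higher, a rise of 26.5% (log2 fold change 0.34, standard error 0.07, adjusted p = 0.00990 from edgeR). The adjusted p-value of CTSB was 0.0671 without control replicate 2, 0.0676 without fluoxetine replicate 1 and 0.0821 without fluoxetine replicate 3.

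CTSC (ENSG00000109861, chromosome 11, 88293592 to 88337787, minus strand), a dipeptidyl peptidase that activates serine proteases of immune cell granules, moved in the opposite direction. Its level was 887, 873 and 841 CPM in control replicates 1, 2 and 3, and 737, 744 and 726 CPM in fluoxetine replicates 1, 2 and 3. All fluoxetine libraries were below all control libraries, and the level fell by 15.1% (log2 fold change -0.24, standard error 0.06, adjusted p = 0.0354 from edgeR). The log2 fold change of CTSC stayed between -0.29 and -0.21 in all 14 alternatives. Its adjusted p-value from edgeR lay above the threshold of 0.05 without control replicate 1 (0.0579), control replicate 2 (0.0763), fluoxetine replicate 1 (0.119) and fluoxetine replicate 3 (0.143), so that the call was lost in these fits.

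CTSL (ENSG00000135047, chromosome 9, 87725519 to 87731393, plus strand), an endopeptidase of broad specificity, was the most abundant member. It was at 2843, 2570 and 2290.0 CPM in control replicates 1, 2 and 3, and at 3013, 3219 and 3007 CPM in fluoxetine replicates 1, 2 and 3. The groups did not overlap, but the difference of 0.26 (log2 fold change, 95% interval 0.07 to 0.46) did not pass (adjusted p = 0.0738 from edgeR). With library size as the only normalization the adjusted p-value was 0.0420, and without a filter on low counts it was 0.0131. The CTSL pseudogenes CTSLP1 and CTSLP2 had a mean of at most 0.83 counts per library.

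For the remaining cysteine proteases no change was called. CTSZ (ENSG00000101160, chromosome 20, 58995185 to 59007247, minus strand), a carboxypeptidase, was the only member whose groups overlapped, with 279 to 333 CPM in control libraries and 284 to 319 CPM after fluoxetine (log2 fold change -0.03, 95% interval -0.22 to 0.15, adjusted p = 0.826 from edgeR). CTSF (ENSG00000174080, chromosome 11, 66563463 to 66568841, minus strand) was the least abundant, at 8.60 to 9.99 CPM and 10.4 to 12.7 CPM (log2 fold change 0.32, 95% interval 0.03 to 0.61, adjusted p = 0.135 from edgeR). LGMN (ENSG00000100600, chromosome 14, 92703807 to 92748702, minus strand), which cuts after asparagine and helps to process other cathepsins, was at 44.5 to 48.8 CPM and 52.1 to 57.2 CPM (log2 fold change 0.20, 95% interval 0.01 to 0.38, adjusted p = 0.150 from edgeR). The groups of CTSF and LGMN did not overlap.

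**Figure D3:**
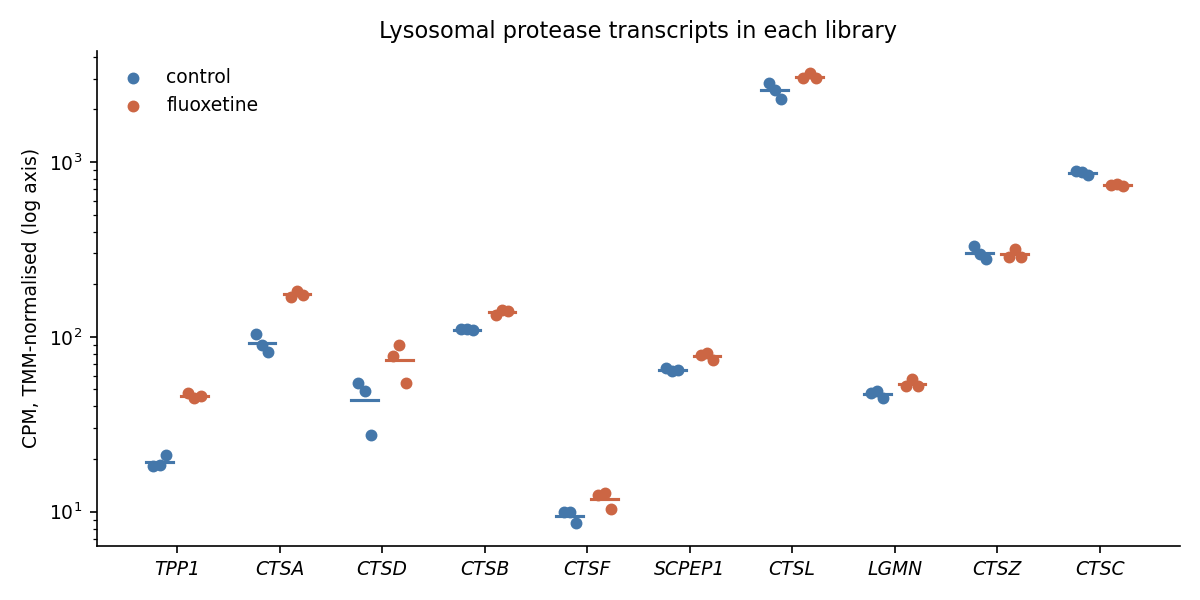
Level of each of the 10 lysosomal proteases in each library, in CPM after TMM normalization on a log axis, with control libraries on the left and fluoxetine libraries on the right of each gene and a line at the mean of 3 libraries. TPP1 and CTSA stand clearly apart between the groups, CTSZ overlaps, and CTSD shows the widest spread within each group.

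To compare the members with each other, counts were divided by the length of the principal transcript and expressed as TPM. CTSL was the most abundant at 2224 ± 179 TPM (SD, n = 3) in control cells, followed by CTSC at 852 ± 13.3 TPM, CTSZ at 383 ± 22.9 TPM and CTSA at 80.7 ± 7.14 TPM. SCPEP1 (63.1 TPM), CTSB (53.7 TPM), LGMN (42.02 TPM), CTSD (38.6 TPM), TPP1 (10.2 TPM) and CTSF (8.81 TPM) came next as mean levels. In control libraries, LGMN and CTSD were the only neighbours in this order whose library values overlapped. After fluoxetine the mean level of CTSA was 160.0 TPM and that of TPP1 25.4 TPM, and both kept their place in the order, whereas CTSD (68.4 TPM) passed LGMN (49.9 TPM). Library values then overlapped between CTSB and CTSD and between CTSD and LGMN. If all CTSD counts came from the 819 bases not shared on its strand, its level would be 100.1 TPM in control cells and 177 TPM after fluoxetine. These values cannot be ranked against CTSA, which was not adjusted for 692 of its 2149 bases shared with genes on the other strand.

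The summed level of the 10 members was 3944, 3810.0 and 3516 TPM in control replicates 1, 2 and 3, and 4352, 4542 and 4219 TPM in fluoxetine replicates 1, 2 and 3. Each fluoxetine library was thus higher than each control library, with a ratio of the means of 1.16. Without CTSL the sum was 1484 to 1558 TPM in control libraries and 1537 to 1662 TPM after fluoxetine, and the groups overlapped. CTSL made up 59.2 ± 1.35% (SD, n = 3) of the sum in control cells and 63.4 ± 0.244% (SD, n = 3) after fluoxetine. The share of CTSC was 22.7 ± 1.34% and 17.2 ± 0.482%, that of CTSZ 10.2 ± 0.143% and 8.87 ± 0.238%, and that of CTSA 2.15 ± 0.0794% and 3.66 ± 0.0657%. For these 4 genes the library values of the groups did not overlap. A share also moves with the other members: the level of CTSZ was 383 TPM in control cells and 388 TPM after fluoxetine, and in the sum without CTSL its share was 25.0 ± 0.958% and 24.2 ± 0.714%, with overlapping groups. In that sum CTSC still went from 55.6 ± 1.45% to 46.8 ± 1.25% and CTSA from 5.26 ± 0.355% to 9.99 ± 0.244%, without overlap. TPP1, with the largest rise, accounted for 0.274 ± 0.0451% and 0.581 ± 0.0362% of the sum, so the largest fold change was in one of the rarest transcripts. Shares depend on the length used. Over all exonic bases, which are 11421 for CTSC and 1921 in its principal transcript, the share of CTSC would be 5.49% in control cells and 3.96% after fluoxetine, and that of CTSL 78.0% and 79.9%.

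**Figure D4:**
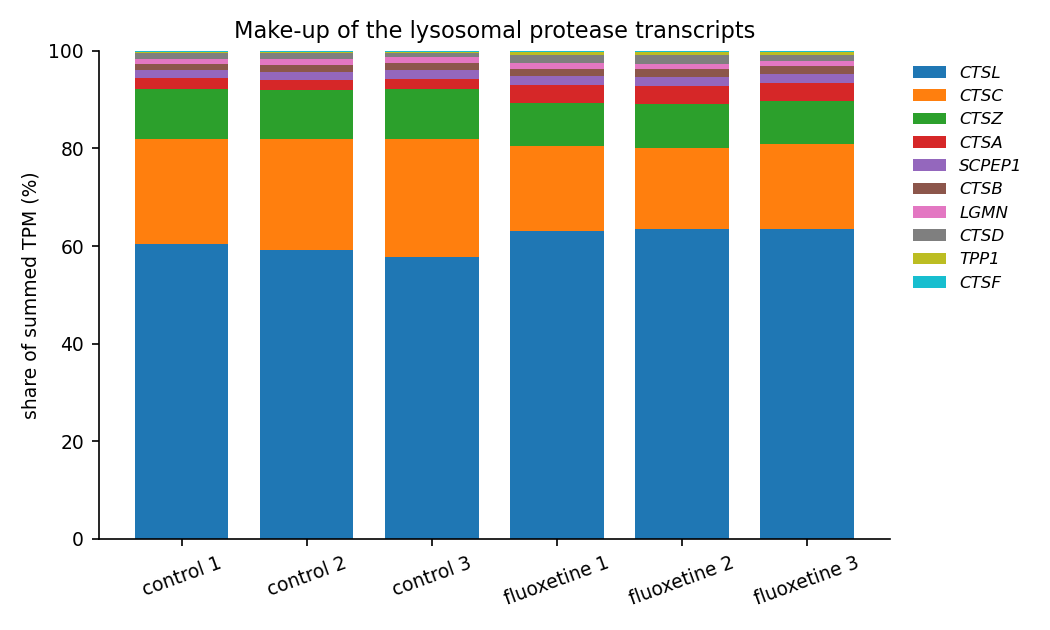
Share of each lysosomal protease in the summed TPM of the 10 genes (y axis, percent), one stacked bar per library. CTSL fills 57.8% to 60.5% of the control bars and 63.1% to 63.6% of the fluoxetine bars, and the CTSC layer is thinner in all fluoxetine bars.

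The proteases were then set beside 3 lists of genes that act with them, written from general knowledge. Of 14 other lysosomal and endosomal peptidases, 10 were tested. Beside 7.76% of all tested genes, 2 of these 10 were upregulated. These were CTSO, a papain-family protease (log2 fold change 0.54, adjusted p = 0.0208 from edgeR), which went from 9.16 ± 1.12 CPM in control cells to 13.3 ± 0.424 CPM (SD of 3 libraries each), and CPVL, a carboxypeptidase related to CTSA (0.38, adjusted p = 0.0154 from edgeR), which went from 32.2 ± 0.727 CPM to 41.8 ± 0.871 CPM. The median of the 10 was 0.29. DPP7, the dipeptidyl peptidase with the highest level per length in the list, was at 66.2, 59.7 and 33.0 CPM in control replicates 1, 2 and 3 and at 68.9, 83.3 and 51.3 CPM in fluoxetine replicates 1, 2 and 3 (log2 fold change 0.36, adjusted p = 0.355 from edgeR). As for CTSD, replicate 3 was the lowest library of each group.

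Of 11 endogenous inhibitors of cysteine cathepsins, 6 were in the table and 3 were tested. CSTB, which encodes cystatin B of the cytosol and is the most abundant of them, was upregulated, from 130, 106 and 80.2 CPM in control replicates 1, 2 and 3 to 165, 183 and 132 CPM in fluoxetine replicates 1, 2 and 3 (log2 fold change 0.61, standard error 0.16, adjusted p = 0.0355 from edgeR). The secreted inhibitor CST3 (cystatin C) had a log2 fold change of 0.03 (95% interval -0.20 to 0.26) and CST2 one of 0.41 (95% interval -0.46 to 1.27), neither past the threshold.

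Genes for delivery to the lysosome and for partner proteins were the list with the most calls. In it 9 of 15 were upregulated, beside 7.76% of all tested genes. For delivery, the receptors IGF2R and M6PR, which bind mannose 6-phosphate, had log2 fold changes of 0.69 (adjusted p = 0.00836 from edgeR) and 0.46 (adjusted p = 0.00571). GNPTAB, a subunit of the enzyme that starts the tag, passed narrowly at 0.38 (adjusted p = 0.0495), and the sorting receptor SORT1 was at 0.56 (adjusted p = 0.0236). CLN8, a receptor that brings lysosomal enzymes out of the endoplasmic reticulum, rose by 0.92 on the log2 scale (adjusted p = 6.48e-05 from edgeR). The adaptors GGA1, GGA2 and GGA3 and CLN6, the other subunit GNPTG and the uncovering enzyme NAGPA did not pass, with log2 fold changes between -0.09 and 0.42.

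Both partners of CTSA in its complex were higher. NEU1 went from 29.8 ± 2.25 CPM in control cells to 125 ± 8.31 CPM (SD of 3 libraries each). Its log2 fold change was 2.07 (edgeR standard error 0.09, adjusted p = 6.59e-07), beside 0.93 for CTSA. GLB1 went from 48.2 ± 0.878 CPM to 60.0 ± 2.75 CPM (log2 fold change 0.32, adjusted p = 0.0260 from edgeR). The level per length of NEU1 was 27.5 TPM in control cells and 120.0 TPM after fluoxetine, and that of CTSA 80.7 and 160.0 TPM. PSAP, the saposin precursor that cathepsins process and the gene with the highest level in the list, rose by 0.44 on the log2 scale (edgeR adjusted p = 0.00268), and GRN, the progranulin precursor that cathepsins cut into granulins, by 1.14 (adjusted p = 4.32e-04). Among the 28 tested genes of the 3 lists, 12 were upregulated and 0 downregulated by edgeR, beside 7.76% and 5.32% of all 15646 tested genes. At an unadjusted p-value under 0.05, 0 of the 28 were lower. At least 4023 of the 15646 tested genes passed that cut in either direction, and the share of lower ones was not counted. DESeq2 and limma-voom also called 0 lower, and 12 and 11 higher. The count of upregulated genes was 8, 5, 4 and 7 without control replicate 1, control replicate 2, fluoxetine replicate 1 and fluoxetine replicate 3. In the same order, those fits called 1191, 919, 572 and 935 of all tested genes in either direction.

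**Figure D5:**
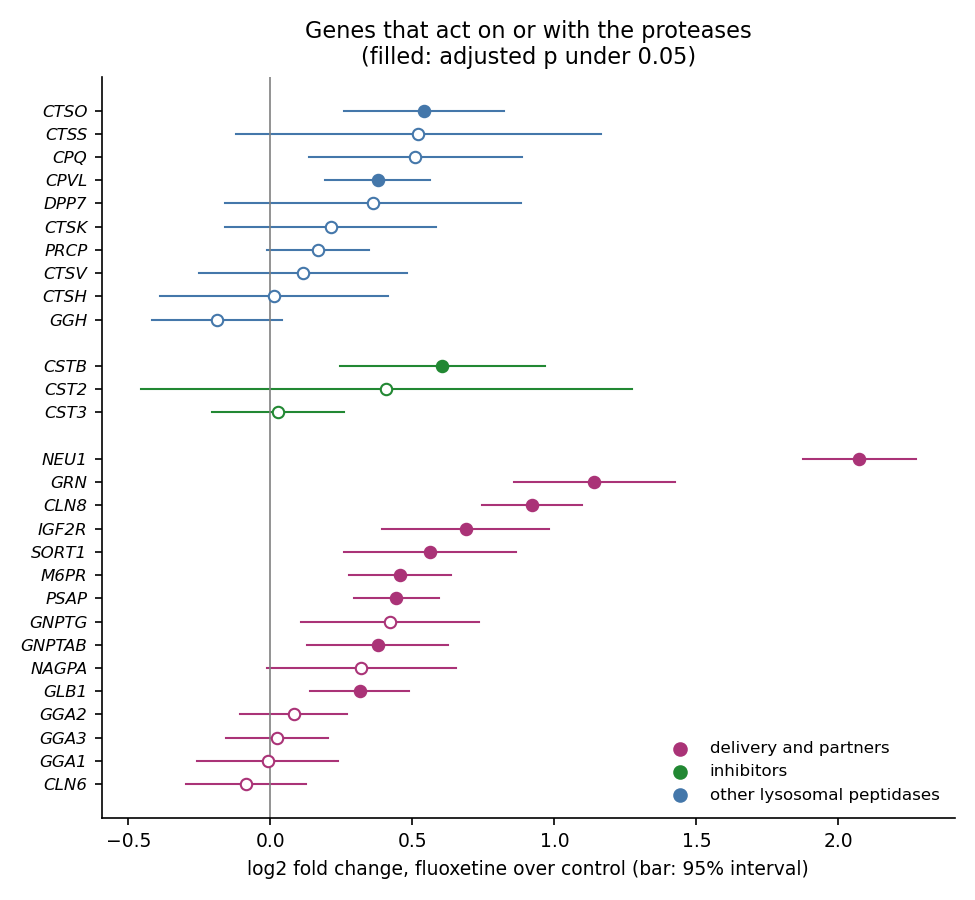
Log2 fold change of fluoxetine over control with its 95% interval for the 28 tested genes of the 3 related lists, coloured by list and filled at an adjusted p-value under 0.05. NEU1 at 2.07 and GRN at 1.14 lie farthest to the right, and no filled point lies left of 0.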

How the data were processed

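RNA of control and fluoxetine-treated H460 cells was sequenced as paired-end reads in 3 libraries per group. The authors deposited raw read counts per gene, and the submitters' processing notes name fastp 0.20.0, HISAT2 2.1.0, HTSeq 0.10.0 and DESeq2 1.18.1, without roles. Strand use and annotation are not given in the sources used here. The deposited log2 fold changes and p-values of the authors' own comparison were not used. Groups came from the treatment labels.

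Counts were tested with edgeR 4.0.16 in R 4.3.3 (TMM, filterByExpr, quasi-likelihood test, no covariate, Benjamini-Hochberg adjustment over 15646 genes). Standard errors were the log2 fold change divided by the square root of F. TPM used the APPRIS principal transcript of GENCODE release 29, the longest where there were several, and the longest basic transcript of genes without one. Promoters came from RefSeq. Alternatives were DESeq2 1.42.0, limma-voom (limma 3.58.1), RLE, library size only, 2 filters on low counts, thinning to 16157507 counts, a replicate block and leaving out each library. Chosen after seeing the data were all exonic bases as length, and TMM scaling of the summed level. The test was checked on simulated counts. Replicates differed by more than sampling noise (chi-square per degree of freedom 3.49 to 21.7 within groups and 20.7 to 46.4 between them), so 6 libraries were kept.

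The members and lists were chosen with earlier results of these data known. Named were all members, up to 6 called genes per list by p-value, the gene of highest level in each list and overlapping genes. The remaining genes that are named were chosen after their values were seen.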

Additional observations from a re-analysis of the deposited data

How the results depend on the processing

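TPP1 and CTSA kept their direction and call in all 14 alternatives, with log2 fold changes of 1.19 to 1.29 and 0.82 to 0.99. CTSF and LGMN were called in none of the 14. The number of upregulated proteases was 3 to 6 when no library was left out and 2 to 4 when 1 was, with 2 without control replicate 2 and without fluoxetine replicate 1. The number of downregulated proteases was 0 to 1 when 1 library was left out. Upregulated genes of the related lists numbered 4 to 12 and downregulated ones 0 to 1 in those fits, the 1 being without control replicate 3. The median over the members lay between 0.22 and 0.32 in all alternatives. CTSZ, close to 0, lay between -0.126 and 0.002 when 1 library was left out and changed sign without control replicate 1 (0.002, adjusted p = 0.992 from edgeR). The summed level had a log2 ratio of 0.22 as TPM and 0.14 with RLE normalization, and 0.17 to 0.25 when 1 library was left out. Same-numbered libraries deviated from their group means with correlations of 0.0297, 0.116 and 0.392. Control replicates 2 and 3 each correlated best with the fluoxetine library of the same number, but control replicate 1 with fluoxetine replicate 2 (0.320). The numbers were not taken as pairs in the main test, and whether they mark pairs or a batch cannot be told from these values. With the replicate block, 6 proteases and 16 related genes were upregulated, CTSD (adjusted p = 2.35e-15 from edgeR) and CTSL (adjusted p = 0.0147) among them, and 4018 of all genes were called beside 2047 without it. Over all genes, 572 to 3633 were called when 1 library was left out. CTSD was also called at equal depth (adjusted p = 0.0451) and without a filter on low counts (3.23e-10), and was at 0.169 with DESeq2. The causes were not tested. Each member had at least 179 counts in every library. CTSF, the member with the fewest, was not called at 1.25-fold, and CTSD moved from an adjusted p of 0.0571 to 0.0451 when libraries were thinned to equal depth.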
